A study of Mus musculus with 6 samples.

Results

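Genes of the cohesin and condensin complexes, their regulators, the proteins that anchor chromatin loops and the DNA topoisomerases were followed in RNA sequencing libraries of cultured mouse cells. The 36 genes were listed by function. The rule uses no measured value, but the list was drawn up with earlier results of these data known. All 36 were found by symbol among the 24672 gene symbols of the deposited table. The series title asks how retinoic acid starts meiosis in female germline stem cells and how the three-dimensional structure of chromatin changes with it. Each of 2 groups had 3 libraries of C57BL/6 cells beyond passage 20. Cells labelled FGSC (female germline stem cells) were kept on mitotically inactivated STO fibroblasts in medium with 10% serum, 10 ng/mL LIF, 20 ng/mL EGF, 10 ng/mL bFGF and 10 ng/mL GDNF. Cells labelled Dif-FGSC were FGSC that had been freed of STO cells and reseeded on inactivated granulosa cells, in medium with 10% serum, 0.1 µmol/L retinoic acid, 10 ng/mL BMP4 and 10 ng/mL bFGF. Retinoic acid, BMP4, the feeder cells and the withdrawn factors therefore changed together, and their parts in any difference cannot be told apart. The table's columns are headed con and dif. The con columns were read as FGSC, so every direction below rests on that reading. The labels do not tie replicates to separate cultures. All p-values therefore reflect spread among the 6 libraries alone, and that spread could be technical.

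Cohesin is a ring built of SMC1A, SMC3 and RAD21 to which a STAG protein binds. It is loaded onto DNA by NIPBL with MAU2, extrudes loops until it meets CTCF, and is taken off by WAPL and PDS5. In dividing cells part of it also holds sister chromatids together after acetylation by ESCO1 or ESCO2 and binding of sororin (CDCA5), until separase cuts RAD21. Condensin I and condensin II share SMC2 and SMC4, differ in their other subunits, and compact chromosomes for mitosis. In meiosis REC8, SMC1B and STAG3 replace the mitotic cohesin subunits.

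Values are FPKM, fragments per kilobase of transcript scaled to the mapped fragments of each library. The steps between low FPKM values implied 17300000 to 27300000 fragments per library, and between 12388 and 12830 genes per library stood above 0. At that depth Esco2, the lowest expressed of the members with a single estimate, rested on about 384 to 766 fragments per library. For 16 of the 36 members the values carried the decimals of a mean over several transcript records. Such means would understate a gene's total, so the text ranks levels of members only between genes with a single estimate. The cutoffs and summed levels of the marker lists take all values as listed, such means included. The cell type named in the labels was checked against marker lists. None of 12 germ cell markers reached a mean of 1 FPKM, and 9 of them stayed below 0.1 FPKM in every library. Dazl and Sycp3 were among the 5 listed at 0 throughout, and Ddx4 did not exceed 0.0104 FPKM. None of 9 fibroblast and none of 9 granulosa markers reached that mean either, and Col3a1 and Foxl2 were listed at 0 in every library. The summed levels of these 3 lists in FGSC and Dif-FGSC were 0 to 0.253 and 0.606 to 0.929 FPKM for germ cells, 0.337 to 0.639 and 0.164 to 0.236 FPKM for fibroblasts, and 0.616 to 0.834 and 0.466 to 0.681 FPKM for granulosa cells. Most of the germ cell sum in Dif-FGSC came from Zbtb16 alone. Zbtb16 was listed at 0 in every FGSC library and at 0.433, 0.478 and 0.749 FPKM in Dif-FGSC. Ifitm3 went the other way, from 0.169, 0 and 0.177 FPKM in FGSC to 0 in every Dif-FGSC library. Among 13 blood cell markers, 8 reached the mean of 1 FPKM: 5 rose, 1 fell and 2 were not called. Of all genes that reached it, 36.5% rose and 28.6% fell. The summed level of the 13 was 722 to 774 FPKM in FGSC and 936 to 946 FPKM in Dif-FGSC. Mcpt8, a basophil protease, rose 13.8-fold (from 0.596 to 8.21 FPKM), the leukocyte gene Laptm5 1.88-fold, Gata2 1.34-fold, Kit 1.29-fold and Ptprc 1.26-fold, and the macrophage marker Adgre1 fell to 0.21 times. Cpa3, a mast cell protease, stood at 266 to 313 FPKM over all libraries and, like Spi1, was not called. Of the other mast cell and basophil markers, Tpsb2 was at 0 in every library and Fcer1a did not exceed 0.0431 FPKM. The part of these markers in the results was not tested. In bulk libraries, fewer cells of a type and less RNA per cell cannot be told apart. FGSC and Dif-FGSC below name the labels.

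Of the 36 members, 34 reached a mean of 1 FPKM and were tested with limma together with all other such genes. Among these 34, 18 were lower in Dif-FGSC (52.9%) and 6 were higher (17.6%), at an adjusted p under 0.05 over all genes. Calls were frequent everywhere: 65.1% of all 9162 genes tested were called, 28.6% lower and 36.5% higher. The median log2 difference was -0.16 over the tested members and 0.03 over all genes tested, on the scale of log2(FPKM + 1). Adding 1 makes the change of weakly expressed genes look smaller than it is. In 28 of the 34 members the groups did not overlap (18 lower and 10 higher), where 70.7% of all genes tested showed such a gap (31.0% lower and 39.6% higher). The falls lay mainly in the SMC subunits, the remaining cohesin core, and the factors of cohesion and condensation. The rises lay in CTCF, LDB1, MAU2, the PDS5 proteins and 1 condensin subunit.

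**Figure D1:**
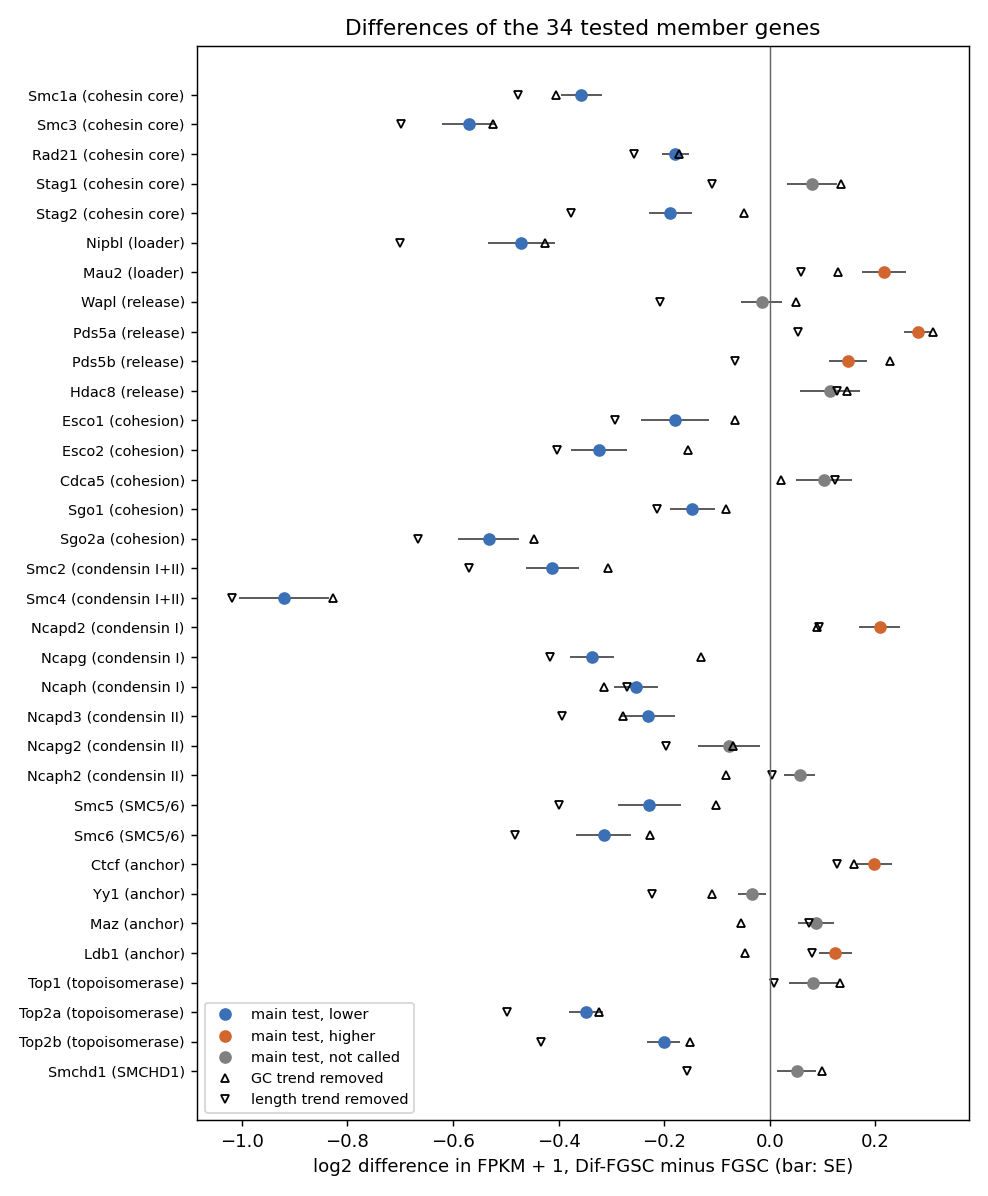
Log2 difference in FPKM + 1 (x axis, Dif-FGSC minus FGSC, bars: SE) for the 34 tested members, ordered by role. Filled circles are the main test, with 18 lower, 6 higher and 10 not called. Open triangles give the same difference after a trend with transcript GC content or transcript length was removed from each library. Smc4 has the lowest main value of all members and Pds5a the highest.

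Differences over all genes varied with the GC content and the length of the transcripts. Over all genes tested, the median log2 difference ran from -0.10 in the quintile of genes with the lowest GC content to 0.14 in the quintile with the highest. Of the 34 members, 21 lay in the lowest quintile, and 14 of these 21 were lower, where 44.4% of all genes of that quintile were. By transcript length the medians ran from -0.09 in the shortest quintile to 0.19 in the longest, and 15 members lay in the longest quintile. Of these 15, 8 were lower and 3 higher, where 15.7% and 56.1% of all genes of that quintile were. With the GC trend removed from each library 16 members were lower and 6 higher, where 34.9% and 29.7% of all genes then tested were. With the length trend removed 22 members were lower and 1 higher, where 34.7% and 29.5% of all genes then tested were. The FGSC libraries also differed among themselves in these genes. Of the 18 lower members, 16 had their lowest FGSC value in FGSC replicate 2, against 35.2% of the 2622 genes called lower. Without that library 18 members were still lower and 6 higher.

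**Figure D2:**
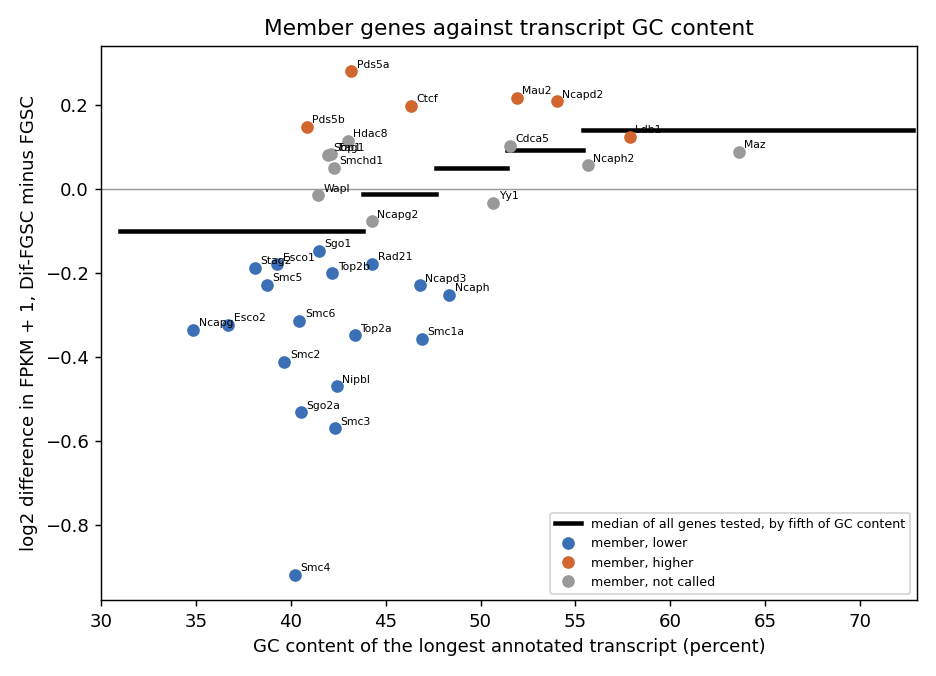
Log2 difference in FPKM + 1 (y axis, Dif-FGSC minus FGSC) of the tested members against the GC content in percent of their longest annotated transcript (x axis). Black bars are medians of all genes tested in each quintile of GC content, from -0.10 to 0.14. Most members lie in the lowest quintile, where lower members reach well below the bar and Pds5a and Pds5b lie above it.

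All 3 subunits that form the cohesin ring were lower in Dif-FGSC. Smc3, which encodes the ring subunit that ESCO1 and ESCO2 acetylate, stood at 53.9, 48.4 and 55.3 FPKM in the FGSC libraries and at 34.6, 34.6 and 35.8 FPKM in the Dif-FGSC libraries. The groups lay far apart, and the transcript fell to 0.666 times its FGSC level (log2 difference -0.57 ± 0.050 SE, limma adjusted p = 4.9e-05). Smc1a, the partner ATPase of SMC3, stood at 66.3, 65.9 and 69.6 FPKM and then at 52.4, 50.2 and 54.4 FPKM. It fell to 0.778 times its FGSC level (log2 difference -0.36 ± 0.039 SE, adjusted p = 0.000136). Rad21, the kleisin that closes the ring, stood at 111, 109 and 109 FPKM and then at 95.9, 98.3 and 95.1 FPKM, a fall to 0.882 times (adjusted p = 0.000594). All 3 have a single estimate, and the order Rad21, Smc1a, Smc3 held in every library.

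The STAG subunits, which carry the ring's contact with CTCF, were not both called. Stag2 stood at 7.41, 7.43 and 7.91 FPKM in FGSC and at 6.41, 6.49 and 6.69 FPKM in Dif-FGSC, with no overlap (log2 difference -0.19 ± 0.041 SE, adjusted p = 0.00467). That call was lost with the GC trend removed (log2 difference -0.05, adjusted p = 0.272). Stag1 stood at 3.28, 3.35 and 3.32 FPKM in FGSC and at 3.50, 3.41 and 3.80 FPKM in Dif-FGSC, above the FGSC range by a small margin, and was not called (adjusted p = 0.17). Stag1 was called higher with the GC trend removed (log2 difference 0.13, adjusted p = 0.0318) and turned to -0.11 with the length trend removed.

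The loading factors moved in opposite directions. Nipbl, the loader that also drives loop extrusion, stood at 5.67, 5.27 and 6.33 FPKM in FGSC and at 3.79, 3.77 and 4.05 FPKM in Dif-FGSC. It fell to 0.672 times its FGSC level (log2 difference -0.47 ± 0.063 SE, adjusted p = 0.000408). Its partner Mau2 stood at 4.49, 4.49 and 4.57 FPKM and rose to 5.49, 5.58 and 5.16 FPKM (log2 difference 0.22 ± 0.042 SE, adjusted p = 0.00285). The rise of Mau2 was lost when the length trend was removed (log2 difference 0.06, adjusted p = 0.236), while Nipbl then fell by 0.70 on the log2 scale.

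Of the 4 factors that release cohesin or reset it, 2 were higher and none was lower. The shares over all genes tested were 36.5% higher and 28.6% lower. Pds5a, which holds WAPL on the ring, rose from 60.3, 59.3 and 59.8 FPKM to 73.6, 73.2 and 71.8 FPKM, the largest log2 difference upward among the members (0.28 ± 0.026 SE, adjusted p = 5.84e-05). Pds5b, its paralogue, rose from 11.7, 11.2 and 12.1 FPKM to 12.9, 13.1 and 13.1 FPKM (log2 difference 0.15 ± 0.037 SE, adjusted p = 0.00872). Both transcripts are long, and with the length trend removed neither was called (log2 difference 0.05 for Pds5a and -0.06 for Pds5b). The Pds5b call was also lost after quantile normalization (0.07, adjusted p = 0.0973). Wapl, the release factor itself, overlapped between groups at 14.7 to 15.3 FPKM in FGSC and 14.2 to 15.3 FPKM in Dif-FGSC, and was not called (adjusted p = 0.752), but was called lower with the length trend removed (log2 difference -0.21, adjusted p = 0.00353). Hdac8, which removes the acetyl marks from SMC3, stood at 4.67, 4.79 and 4.09 FPKM and then at 4.84, 4.94 and 5.09 FPKM, and was not called (adjusted p = 0.115).

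Among the 5 factors of sister chromatid cohesion 4 were lower and none was higher, where 28.6% and 36.5% of all genes tested were. Sgo2a, a shugoshin that protects centromeric cohesin, fell from 8.04, 6.88 and 7.68 FPKM to 4.70, 4.94 and 5.03 FPKM (log2 difference -0.53 ± 0.058 SE, adjusted p = 0.000141). Its mitotic relative Sgo1 fell from 15.7, 14.9 and 16.3 FPKM to 13.5, 14.1 and 14.4 FPKM (log2 difference -0.15 ± 0.043 SE, adjusted p = 0.0175). The call of Sgo1 was lost without Dif-FGSC replicate 1 (adjusted p = 0.0665) and with the GC trend removed (0.0741). Esco2, the acetyltransferase of S phase, fell from 7.02, 6.16 and 6.84 FPKM to 5.19, 4.92 and 5.27 FPKM (log2 difference -0.32 ± 0.054 SE, adjusted p = 0.00122). With the GC trend removed the difference of Esco2 shrank to -0.15 (adjusted p = 0.0161). Esco1, which acetylates cohesin throughout the cell cycle, stood at 10.5, 9.11 and 11.02 FPKM and then at 8.93, 9.04 and 8.63 FPKM. The groups were separated by less than 0.1 FPKM, and the Esco1 call (adjusted p = 0.0403) was lost without FGSC replicate 1, without FGSC replicate 3 and without any single Dif-FGSC library (adjusted p 0.072 to 0.113). It was also lost without the filter on low values (0.0816) and with the GC trend removed (log2 difference -0.07, adjusted p = 0.322), and held in 8 of 17 other settings. Cdca5, the gene of sororin, overlapped at 21.7 to 24.3 FPKM in FGSC and 23.7 to 25.9 FPKM in Dif-FGSC and was not called (adjusted p = 0.125).

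**Figure D3:**
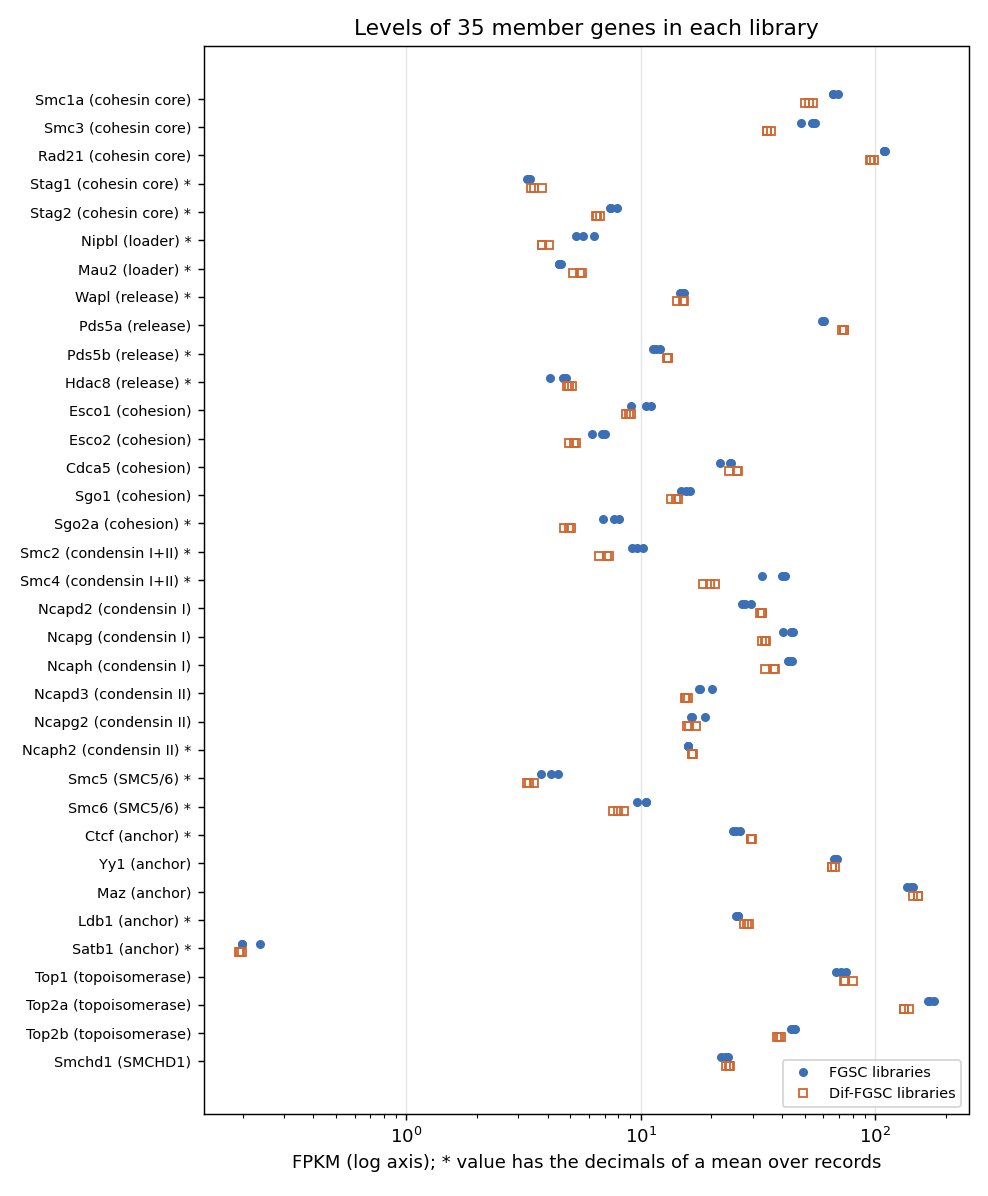
FPKM of 35 members in each of the 6 libraries (log axis), ordered by role; filled circles are FGSC and open squares Dif-FGSC. Asterisks mark values with the decimals of a mean over records, which would understate the gene's total. Smc4 has the widest gap between groups. Satb1 has the lowest values drawn, but these are such means and do not rank its total. Ctcfl, at 0 in every library, is not drawn.

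The ATPases shared by both condensins fell, and Smc4 had the lowest log2 difference of the tested members. Smc4 was listed at 41.3, 32.8 and 39.9 FPKM in FGSC and at 19.7, 18.3 and 20.6 FPKM in Dif-FGSC. FGSC replicate 2 was the lowest of its group but still well above every Dif-FGSC library. The Dif-FGSC level was 0.514 times the FGSC level (log2 difference -0.92 ± 0.085 SE, adjusted p = 6.16e-05). Smc2, the partner of SMC4, fell from 9.66, 9.2005 and 10.2 FPKM to 7.15, 6.64 and 7.29 FPKM (log2 difference -0.41 ± 0.050 SE, adjusted p = 0.000249). The call and direction of Smc2 and Smc4 held in all 17 other settings.

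Subunits particular to condensin I went both ways. Ncapg, a HEAT-repeat subunit, fell from 43.6, 40.4 and 44.4 FPKM to 32.9, 33.9 and 34.3 FPKM (log2 difference -0.34 ± 0.041 SE, adjusted p = 0.000247). Ncaph, the kleisin of condensin I, fell from 42.8, 42.4 and 44.1 FPKM to 33.9, 37.3 and 36.9 FPKM (log2 difference -0.25 ± 0.042 SE, adjusted p = 0.00121). Ncapd2, the other HEAT-repeat subunit, rose from 26.9, 27.9 and 29.5 FPKM to 32.8, 32.8 and 32.3 FPKM (log2 difference 0.21 ± 0.039 SE, adjusted p = 0.00216). These 3 transcripts differ in GC content, at 34.8% for Ncapg, 48.3% for Ncaph and 54.0% for Ncapd2. With the GC trend removed the difference was -0.13 for Ncapg, -0.31 for Ncaph and 0.09 for Ncapd2, and the Ncapd2 call was lost (adjusted p = 0.057). The Ncapd2 call was also lost with the length trend removed (0.09, adjusted p = 0.0511).

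Of the condensin II subunits, whose complex stays in the nucleus through interphase, 1 was lower and 2 were not called. The shares over all genes tested were 28.6% lower and 36.5% higher. Ncapd3 fell from 17.7, 17.9 and 20.1 FPKM to 15.5, 15.9 and 15.5 FPKM (log2 difference -0.23 ± 0.051 SE, adjusted p = 0.00537). Ncapg2 overlapped between groups at 16.4 to 18.8 FPKM in FGSC and 15.7 to 17.1 FPKM in Dif-FGSC and was not called (log2 difference -0.08, adjusted p = 0.28). It was called lower with the length trend removed (-0.20, adjusted p = 0.0129) and after quantile normalization (-0.16, 0.0387). Ncaph2, the kleisin, stood at 15.9, 16.0 and 15.9 FPKM and then at 16.5, 16.7 and 16.6 FPKM, a narrow gap that was not called (adjusted p = 0.124), although with the GC trend removed it was called lower (log2 difference -0.08, adjusted p = 0.041). Ncapd3 and Ncapg2, with single estimates, lay below Ncapd2, Ncapg and Ncaph in all 6 libraries.

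The third SMC complex, which pairs SMC5 with SMC6 and acts in DNA repair, fell as well. Smc6 fell from 10.5, 9.63 and 10.5 FPKM to 8.46, 7.59 and 8.01 FPKM (log2 difference -0.31 ± 0.052 SE, adjusted p = 0.00117). Smc5 fell from 4.13, 3.75 and 4.45 FPKM to 3.32, 3.26 and 3.50 FPKM (log2 difference -0.23 ± 0.059 SE, adjusted p = 0.0109), a call lost with the GC trend removed (0.0917). Counted together, a grouping chosen after the values were seen, all 6 SMC genes were lower, with a median log2 difference of -0.38. All 6 had their lowest FGSC value in FGSC replicate 2. Of the 28 other tested members 12 were lower and 6 higher, with a median of -0.02. Over all genes tested 28.6% were lower and 36.5% higher. Of 7 other genes of the complex of SMC5 and SMC6, 5 were lower and 2 higher. The lower ones included Nsmce4a, a subunit that fell from 79.2 ± 2.06 to 62.2 ± 1.45 FPKM (SD, n = 3; adjusted p = 6.13e-05), and Slf1, a recruiting factor, at 0.794 times. Nsmce3 stood at 0.807 times its FGSC level. Eid3 rose from 0.909 ± 0.101 to 2.17 ± 0.141 FPKM (SD, n = 3) and Slf2 rose 1.17-fold.

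Of the 4 tested loop anchor genes, 2 were higher and 2 were not called, where 36.5% of all genes tested were higher. Ctcf, the zinc finger protein that stops cohesin at loop anchors, stood at 26.5, 25.4 and 24.8 FPKM in FGSC and at 29.4, 29.7 and 29.4 FPKM in Dif-FGSC. It rose 1.15-fold (log2 difference 0.20 ± 0.033 SE, adjusted p = 0.00127). It was the only member of the 6 higher ones whose call and direction held in all 17 other settings, with log2 differences of 0.13 to 0.22. Ldb1, which joins enhancers to promoters through LIM-domain partners, rose from 25.6, 25.9 and 26.0 FPKM to 28.3, 28.9 and 27.5 FPKM (log2 difference 0.12 ± 0.031 SE, adjusted p = 0.00899). Its direction turned with the GC trend removed (-0.05, adjusted p = 0.191). The Ldb1 call was also lost after quantile normalization (0.05, adjusted p = 0.194) and with the length trend removed (0.08, 0.0544). Maz, a zinc finger protein that also blocks cohesin, stood at 145, 142 and 136 FPKM and then at 152, 153 and 146 FPKM, a gap that was not called (log2 difference 0.09, adjusted p = 0.0526). Maz was called higher after quantile normalization (0.18, adjusted p = 0.00111), with a filter at 5 FPKM (0.0477), without FGSC replicate 1 (0.0355) and without Dif-FGSC replicate 3 (0.038). It turned to -0.05 with the GC trend removed (0.161). Yy1, a factor at promoters and enhancers, overlapped at 66.5 to 68.5 FPKM in FGSC and 65.1 to 67.0 FPKM in Dif-FGSC and was not called (log2 difference -0.03, adjusted p = 0.309). Yy1 was called lower with the length trend removed (-0.22, adjusted p = 0.000678) and with the GC trend removed (-0.11, 0.0138). Smchd1, an SMC-like protein of the silent X chromosome, overlapped at 22.0 to 23.6 FPKM and 23.1 to 24.0 FPKM and was not called (adjusted p = 0.25), but was called lower with the length trend removed (log2 difference -0.16, adjusted p = 0.00377).

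The remaining anchor genes, as listed, did not reach a mean of 1 FPKM. Ctcfl, the testis paralogue of Ctcf, was listed at 0 in all 6 libraries, where 3 fragments, which cover counting error only, correspond to 0.0342 to 0.0539 FPKM. Satb1, a chromatin organiser of T cells, was listed at 0.2, 0.2 and 0.237 FPKM in FGSC and at 0.192, 0.198 and 0.195 FPKM in Dif-FGSC, and was under the filter. Its values have the decimals of a mean, over a number of records that the decimals do not fix. If the number is that of its curated RefSeq transcripts, 8, which is an assumption, it passes the filter and is not called (log2 difference -0.07, adjusted p = 0.435).

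Partners of the anchor proteins were read from lists chosen by function with earlier results of these data known. Of 8 partners of CTCF and related factors, 5 were higher and 3 lower, where 36.5% and 28.6% of all genes tested were. Chd8, a remodeller that binds CTCF, rose 1.21-fold and Bptf 1.24-fold, while Zfp143, a factor at promoter anchors, fell from 10.8 ± 0.309 to 7.94 ± 0.11 FPKM (SD, n = 3; adjusted p = 5.8e-05). Adnp was listed at 0, 1.68 and 1.88 FPKM in FGSC and at 5.04, 5.50 and 4.60 FPKM in Dif-FGSC, and the 0 can be a failed estimate. Of 8 partners of LDB1, 4 were higher and 3 lower. The blood cell factors Gata1 (2.09-fold), Tal1 (1.42-fold) and Gata2 (1.34-fold) rose, and the bridging protein Lmo2 fell to 0.623 times.

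Topoisomerases that cut both DNA strands were lower. Top2a, the form of dividing cells, with the highest FGSC level of the members with a single estimate, stood at 171, 168 and 178 FPKM and fell to 133, 133 and 139 FPKM (log2 difference -0.35 ± 0.032 SE, adjusted p = 6.01e-05). Top2b, the form of resting cells that also works at loop anchors, fell from 45.2, 43.6 and 45.5 FPKM to 37.9, 39.0 and 39.6 FPKM (log2 difference -0.20 ± 0.032 SE, adjusted p = 0.000907). Top1, which cuts a single strand, overlapped at 68.3 to 75.3 FPKM in FGSC and 73.7 to 80.1 FPKM in Dif-FGSC and was not called (log2 difference 0.08, adjusted p = 0.156), but was called higher with the GC trend removed (0.13, adjusted p = 0.0204).

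Paralogues and counterparts were set against each other as ratios within each library. For condensin I over condensin II, the ratio of the HEAT-repeat subunits Ncapd2 over Ncapd3 was higher in Dif-FGSC, at 2.08 ± 0.0287 against 1.52 ± 0.0478 in FGSC (SD, n = 3). The other such ratios were lower. Ncapg over Ncapg2 went from 2.49 ± 0.133 to 2.07 ± 0.0848, and Ncaph over Ncaph2 from 2.71 ± 0.0612 to 2.17 ± 0.103. Stag1 over Stag2 went from 0.438 ± 0.0164 to 0.546 ± 0.0208, away from Stag2. Sgo1 over Sgo2a went from 2.08 ± 0.115 to 2.86 ± 0.0119, and Top2a over Top2b from 3.85 ± 0.0662 to 3.48 ± 0.0561. The 2 groups did not overlap for any of 8 ratios compared, Pds5a over Pds5b and Esco1 over Esco2 included. Of all single genes tested 70.7% showed such a gap too, and ratios of other gene pairs were not compared. Each gave p = 0.1 in an exact two-sided permutation test of the log2 ratio, the smallest value that 3 against 3 libraries allow, and 0.1 after adjustment over the 8 pairs, so none could pass 0.05. With the GC trend removed the log2 ratio difference of Ncapg over Ncapg2 went from -0.26 to -0.06 and the groups overlapped. That of Esco1 over Esco2 went from 0.14 to 0.09, with overlap, and that of Pds5a over Pds5b from 0.13 to 0.08. With the length trend removed Top2a over Top2b went from -0.15 to -0.06, with overlap, and Esco1 over Esco2 also overlapped, at 0.11. No ratio changed direction under either. For ratios with a gene whose values are means over records only the change between groups is meaningful.

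**Figure D4:**
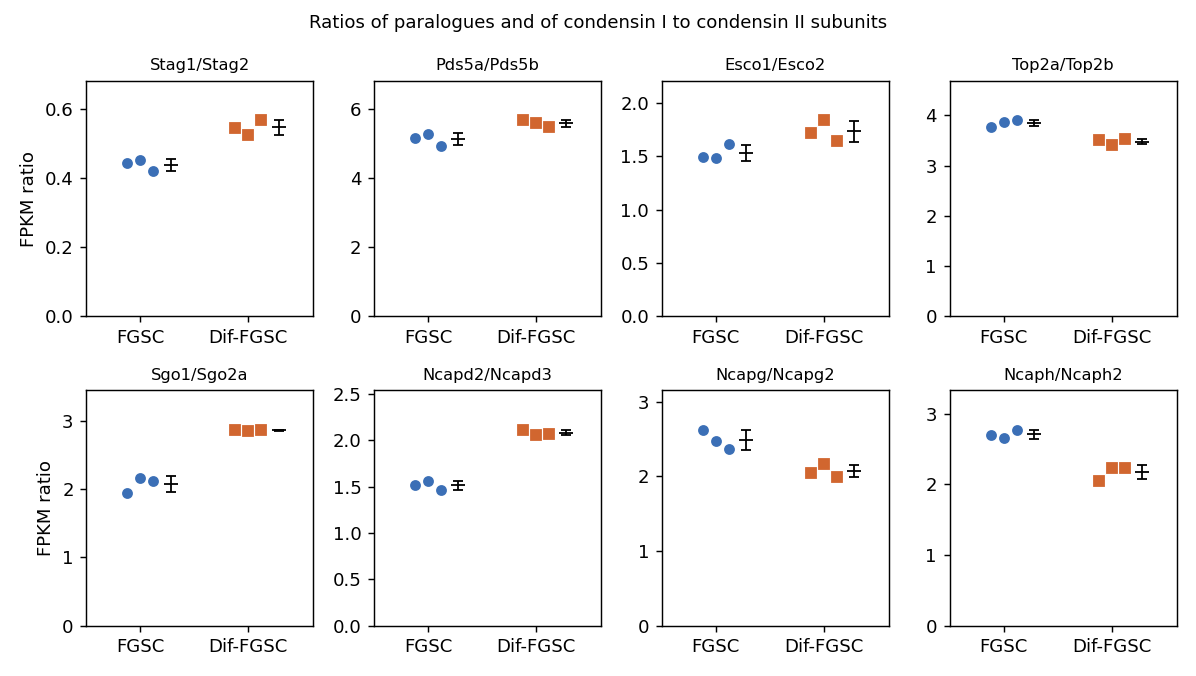
FPKM ratio (y axis, starting at 0) of 5 paralogue pairs and 3 condensin I to condensin II pairs in each library; circles are FGSC, squares Dif-FGSC, and black marks the mean with SD of 3 libraries. The groups are separate in all 8 panels, as they are for 70.7% of all single genes tested. Ncapd2/Ncapd3 moves up while Ncapg/Ncapg2 and Ncaph/Ncaph2 move down.

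Meiotic cohesin genes were listed at 0 or at low levels. Rad21l and Sgo2b were listed at 0 in every library, and Smc1b and Stag3 stayed below 0.1 FPKM. Rec8 stood at 0.153, 0.221 and 0.13 FPKM in FGSC and 0.139, 0.16 and 0.141 FPKM in Dif-FGSC, with overlap. The Rec8 values have the decimals of a mean over records, which would understate its total. Meikin, a meiotic kinetochore gene, was listed at 14.9, 15.0 and 18.1 FPKM in FGSC and fell to 10.7, 10.6 and 10.2 FPKM (adjusted p = 0.000357). Strand use in counting is not given, so reads from an overlapping gene cannot be told apart from Meikin.

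Other cohesin regulators and mitotic genes gave a mixed picture. Of 11 cohesin partners 7 were higher and 3 lower, where 36.5% and 28.6% of all genes tested were. Espl1, the gene of separase, rose from 9.73 ± 0.271 to 13.3 ± 0.34 FPKM (SD, n = 3; adjusted p = 5.39e-05), while its inhibitor securin, encoded by Pttg1, fell from 39.9 ± 0.825 to 32.7 ± 2.74 FPKM (adjusted p = 0.00322). Naa50, an acetyltransferase needed for cohesion, rose 1.24-fold. Bub1, the kinase that recruits shugoshin to centromeres, fell to 0.594 times. Of 6 condensin partners 3 were higher and 2 lower: Cdk1, a kinase that activates condensin, rose 1.19-fold, Mcph1, an inhibitor of condensin II, 1.14-fold and Kif4, a chromosome motor, 1.09-fold, while Mki67, which coats mitotic chromosomes, fell to 0.441 times and Ccnb1 to 0.94 times. Of 28 proliferation markers 13 were lower, 7 higher and 8 not called, with a median log2 difference of -0.08. These markers overlap with the partner lists: Bub1, Cdk1, Ccnb1 and Mki67, among others, are counted in both. Cenpf, Mki67 and Cenpe fell furthest, to 0.399, 0.441 and 0.531 times, and E2f1, Foxm1 and Mybl2 rose 1.49-, 1.39- and 1.26-fold. The summed level of the 28 markers was 1916 to 1945 FPKM in FGSC and 1758 to 1781 FPKM in Dif-FGSC. Over all genes the summed level was also lower, at 375225 to 378093 FPKM in FGSC and 355130 to 356664 FPKM in Dif-FGSC. The part of the markers in the fall of condensin and cohesion genes was not tested.

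Many mitotic genes carry a CHR element (cell cycle genes homology region, TTTGAA or TTCGAA), often beside CCAAT boxes, before their start site. RefSeq promoter sequences (build GRCm38.p6, while the submitters' notes name mm9 for the expression values) were matched for 29 of the 36 members. Those not matched were Smc4, Rad21, Stag2, Nipbl, Esco1 and Esco2, all called lower, and Ctcfl. The windows of 130 bases before the start of 5 members are shown because they hold the same element while their transcripts fell (Top2a, Ncapg), rose (Ncapd2) or were not called (Cdca5, Ncaph2). Capitals mark the letters of the CHR element and of CCAAT on either strand, each sequence reads 5′ to 3′ toward the gene, and its last base is the one before the start site.
Top2a, chr11:99024190-99024319, minus strand: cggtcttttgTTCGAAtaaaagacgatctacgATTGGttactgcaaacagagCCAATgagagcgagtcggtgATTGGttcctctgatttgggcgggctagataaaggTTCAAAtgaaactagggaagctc
Ncapg, chr5:45669795-45669924, plus strand: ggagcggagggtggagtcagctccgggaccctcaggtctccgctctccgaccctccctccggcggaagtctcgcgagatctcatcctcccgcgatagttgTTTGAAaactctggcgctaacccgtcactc
Ncapd2, chr6:125191587-125191716, minus strand: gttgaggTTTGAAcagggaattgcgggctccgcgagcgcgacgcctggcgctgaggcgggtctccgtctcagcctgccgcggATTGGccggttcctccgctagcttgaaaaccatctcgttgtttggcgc
Cdca5, chr19:6084967-6085096, plus strand: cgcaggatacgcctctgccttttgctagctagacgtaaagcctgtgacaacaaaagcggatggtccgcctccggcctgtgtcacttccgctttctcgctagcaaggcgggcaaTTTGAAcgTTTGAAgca
Ncaph2, chr15:89355589-89355718, plus strand: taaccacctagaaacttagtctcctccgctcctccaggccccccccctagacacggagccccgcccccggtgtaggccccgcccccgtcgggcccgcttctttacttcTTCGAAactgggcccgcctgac

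The element nearest the start begins 23 bases before it in Top2a, 30 in Ncapg, 9 in Cdca5, 22 in Ncaph2 and 123 in Ncapd2. Over the 250 bases before any listed start, CHR letters occurred in 14 of 29 members (48.3%) and in 19.6% of the 27025 genes of the promoter table. They occurred in 5 of 12 lower, 4 of 6 higher and 4 of 10 uncalled members with a sequence. CCAAT was found in 41.4% of members and 37.5% of all genes, and the E2F letters TTTGGCG or TTTCCCG in 17.2% and 4.54%. Both strands were searched and motifs were counted separately where they share bases. The 27025 genes were not limited to those tested here, and a gene with more listed starts had more chances of a match. A match describes these letters and is not a binding site.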

How the data were processed

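Libraries made from Trizol RNA with a KAPA stranded mRNA kit, per the labels' protocols, were deposited by the authors as 1 table of FPKM values. HISAT2 4.8.2, Cufflinks 2.2.1 and mm9 are named in the submitters' processing notes, without roles. For annotation, strand setting and averaging of transcripts, a statement is not given in the sources used here. The members and lists were chosen with earlier results of these data known. Where a symbol occurred in more than 1 row (2 symbols), its highest row was used. The 9162 genes with a mean of at least 1 FPKM entered limma 3.58.1 (R 4.3.3; lmFit, then eBayes with trend; script tested on simulated data) as log2(FPKM + 1). A call is an adjusted p (Benjamini-Hochberg, all genes) under 0.05. All members are named, and of other lists up to 3 called genes per direction with the largest log2 difference, except 1 gene that is not reported here. Depth was estimated from 5673 genes with a single annotated transcript; 71.2% to 74.9% of low values lay within 0.1 of a whole fragment, for a step set on the same values. GC content and length are those of the longest GENCODE M21 transcript. Alternatives were pseudocount, filter, scaling, trend, replicate block and leaving out each library; those on GC content, length and transcript records were added after the data were seen.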

Additional observations from a re-analysis of the deposited data

How the results depend on the processing

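Of 24 called members 15 (14 lower, 1 higher) kept call and direction in every one of up to 17 other settings. With the length trend removed 1 member was higher in place of 6, while 29.5% of all genes were higher in place of 36.5%. Without 1 library at a time 22 to 24 members were called, with 6 to 7 higher and 16 to 18 lower, and 5295 to 5963 genes in all. Without the filter on low values 6433 of 14637 genes were called. Over all genes, 3343 were higher and 2622 lower, but 2789 and 3185 after quantile normalization and 2706 and 3184 with the GC trend removed. Some small differences turned sign, none of them then past the threshold except Ncaph2 with the GC trend removed (adjusted p = 0.041) and Smchd1 with the length trend removed (0.00377). After quantile normalization Stag1 stood at -0.0176, Ncaph2 at -0.0246 and Smchd1 at -0.0251 (log2). With the GC trend removed Wapl stood at 0.0505, Ncaph2 at -0.0828, Maz at -0.0535 and Ldb1 at -0.0461, with or without the replicate block. With the length trend removed Stag1 stood at -0.109, Pds5b at -0.0649 and Smchd1 at -0.157. Without 1 library at a time Wapl ranged from -0.0339 to 0.0164, the latter without Dif-FGSC replicate 2. The causes were not tested. Replicate numbers were not treated as pairing: correlations of deviations between same-numbered libraries were 0.131, 0.0123 and 0.173, and FGSC replicate 2 correlated better with Dif-FGSC replicate 1 (0.106). With the replicate block 5798 genes and 24 members were called (17 lower, 7 higher): Maz was added (adjusted p = 0.0344) and Esco1 was lost (0.0567). With the block and the GC trend removed 20 members were called.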

Other observations

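The decimals of the table look like those of means over several estimates, which no label or header states. Among tested genes with 1 curated RefSeq transcript, 14 of 4689 (0.299%) had a value with more than 6 significant digits, the number a single estimate carries. Among genes with several RefSeq transcripts, 3494 of 4321 (80.9%) did. Of the 4 such members with 3 RefSeq transcripts, Stag1, Ldb1 and Smc5 became short decimals when multiplied by 3 and not by 2, but Smc6 already when multiplied by 2. The members with 4 (Stag2, Ncaph2) or 8 RefSeq transcripts (Mau2, Satb1) also did so at 2, where the tolerance used cannot tell a mean over 2 from one over 4 or 8. The number of records behind a value, and so the size of any lowering, is therefore not known. When averaged values were multiplied by the number of RefSeq transcripts, 9552 genes passed the filter, and 24 members were called with 18 lower and 6 higher.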
